A study of Homo sapiens with 4 samples.

Results

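Osteopontin, the secreted protein encoded by Spp1, and chains of its cell surface receptors were followed in host and tumour cells of human breast tumours grown in mice. The 9 genes are mouse Spp1, Cd44, Itgav, Itgb1, Itgb3 and Itgb5, read in mouse cells, and human CD44, ITGAV and ITGB5, read in human cells. They are 9 of 68886 human and mouse genes in the matrices, and they were chosen by their known role as osteopontin and its receptors and by their levels over these cell types and pools, which were already known. Their levels across cell types are therefore a description, with no test.

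Osteopontin is a phosphorylated glycoprotein of bone and other matrix that also acts as a soluble signal, made by osteoblasts, activated macrophages and wound fibroblasts. Its RGD motif binds integrins of the alpha v family (Itgav paired with Itgb1, Itgb3 or Itgb5), and CD44, better known as the hyaluronan receptor, is a further receptor described for it. In mammary tumours osteopontin is known as a product of both tumour cells and recruited stroma.

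MCF10DCIS.com, a human breast line that forms lesions like ductal carcinoma in situ, had been seeded on decellularised mouse mammary matrix from young donors of 2 to 3 months or aged donors of at least 18 months, and cultured for 12 days. Matrix and cells went into right or left fat pads of Rag1-/- mice, a strain without mature lymphocytes of the T and B lineages, and tumours with adjacent stroma were taken after 4 weeks. The recipients' age was not given in the sources used here, and both matrices could be carried by the same mouse. Each group was 1 pool with 1 gene expression library, so a difference between pools has no replicate check, and all intervals below are 95% intervals for counting error only. After filtering, 2125 and 2001 tumour cells and 11946 and 12924 host cells remained in the young and aged matrix pools, with medians of 30942 and 30455 human UMIs (unique molecular identifiers, counted transcripts) and 2285.5 and 2261 mouse UMIs per cell, and 190 barcodes occurred in both pools. Where 2 values are given together, the young matrix pool comes first.

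The human osteopontin gene was nearly silent in the tumour cells. SPP1 gave 11 UMIs in the young and 1 UMI in the aged matrix pool over all tumour cells, 0.137 and 0.0129 CPM (UMIs of the gene per 1000000 UMIs of its species). The 11 UMIs lay in 0.329% of the 2125 tumour cells. In the same cells CD44 gave 31353 and 31450 UMIs. No human SPP1 UMI was found in 11946 and 12924 host cell barcodes, with an upper 95% bound of 3.54 and 3.49 CPM of the human UMIs there. SPP1 lies on chromosome 4 (87975714 to 87983411) and CD44 on chromosome 11 (35139171 to 35232402) in GRCh38.p14. Their RefSeq promoters, 250 bases before to 50 after the start on the plus strand, are shown because the osteopontin gene and its receptor gene had such different counts in these cells. Capitals mark AACCACA, the core site bound by RUNX factors, which regulate bone matrix genes.
SPP1, chr4:87975464-87975763: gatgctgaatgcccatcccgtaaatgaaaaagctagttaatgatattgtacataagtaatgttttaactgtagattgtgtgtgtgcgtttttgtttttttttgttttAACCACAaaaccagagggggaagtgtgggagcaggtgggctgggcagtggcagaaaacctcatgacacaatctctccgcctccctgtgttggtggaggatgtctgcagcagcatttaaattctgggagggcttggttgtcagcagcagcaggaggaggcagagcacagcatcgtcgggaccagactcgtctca
CD44, chr11:35138921-35139220: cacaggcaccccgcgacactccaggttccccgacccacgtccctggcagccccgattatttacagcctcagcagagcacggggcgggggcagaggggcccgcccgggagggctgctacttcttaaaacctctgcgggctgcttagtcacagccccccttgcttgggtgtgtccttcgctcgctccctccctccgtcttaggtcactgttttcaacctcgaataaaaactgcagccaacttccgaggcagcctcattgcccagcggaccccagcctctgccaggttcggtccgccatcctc
The SPP1 window held AACCACA once, starting 143 bases before the gene's start, and neither TATAAA nor the AP-1 site TGACTCA on either strand. The CD44 window held none of these 3 motifs. Among 27305 human promoters of the same length 4.28% held AACCACA, 12.0% TATAAA and 4.92% TGACTCA. CpG pairs numbered 6 in the SPP1 window and 18 in the CD44 window, against a median of 14 over all promoters. A match or its absence in such a window is a description of these letters and says nothing of binding in the cells.

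Mouse Spp1 was concentrated in 1 kind of fibroblast. The cluster called Grem1 fibroblast-like, after Grem1, a BMP antagonist of activated stroma, held 408 and 546 cells with 30377 and 23232 CPM of Spp1, 3.42% and 4.22% of host cells but 83.2% and 78.6% of all host Spp1 UMIs. It carried all 10 fibroblast markers, with Col1a1 at 4216 CPM and Pdgfra at 179 CPM over both pools, and the macrophage marker C1qa at 16.3 CPM. The other fibroblast-like cluster, with 237 and 473 cells and led by Sfrp4, Tnxb, Efemp1 and Dpt, had 76.4 and 91.6 CPM of Spp1. Col1a1 (8121 CPM) and Pdgfra (403 CPM) were higher there than in the Grem1 cluster. So were Postn and Fap of the markers for Grem1 fibroblasts, while Grem1, Tnc, Col11a1, Col12a1, Lrrc15 and Inhba were lower. The Spp1 level in the Grem1 cluster was 398 times (357 to 445) and 254 times (237 to 272) that in the other fibroblasts. Single cells of the Grem1 cluster still varied widely: the median cell had 16826 and 9770 CPM, 58.6% and 49.3% of cells were above 10000 CPM, and 18.1% and 22.9% were below 1000 CPM.

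**Figure D1:**
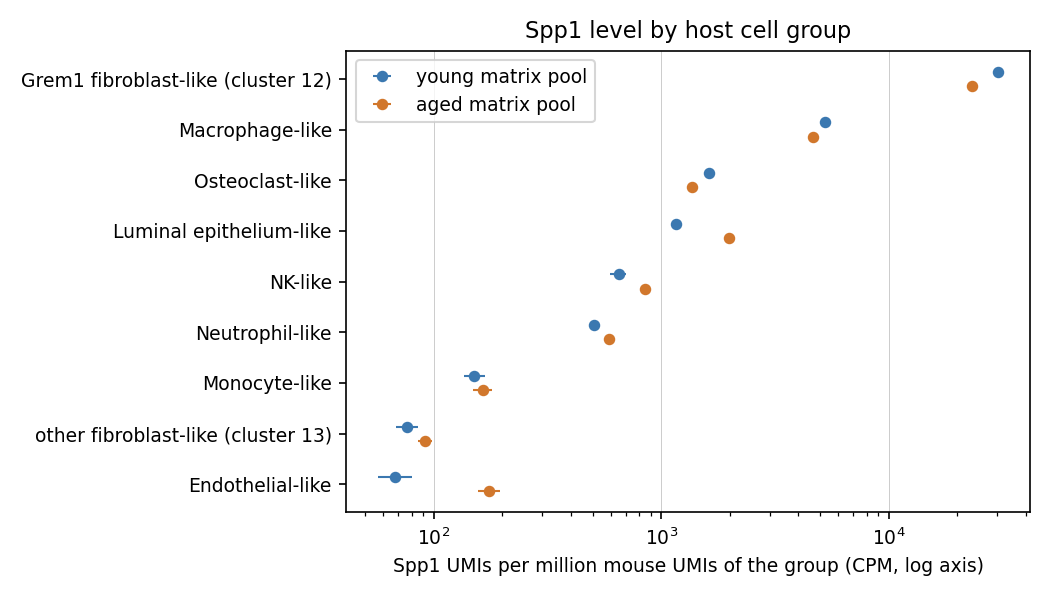
Spp1 level (horizontal, CPM over the group, log axis) in 9 groups of host cells, blue for the young and orange for the aged matrix pool, with bars for the 95% counting interval. The Grem1 fibroblast-like cluster stands highest at 30377 and 23232 CPM, the macrophage-like cells follow at 5257 and 4660 CPM, and the other fibroblasts lie near the bottom at 76.4 and 91.6 CPM.

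An unnamed cluster of 68 and 109 cells came next by level, with 12310.8 and 14489.7 CPM of Spp1 and 6.46% and 9.91% of host Spp1 UMIs. It carried all 10 fibroblast markers together with cycling and pericyte genes, and 27.9% and 30.3% of its cells were above 10000 CPM.

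Macrophage-like cells were the highest in Spp1 of the named classes outside the fibroblasts. Their 801 and 921 cells had 5257 CPM (5206 to 5308) and 4660 CPM (4614 to 4707) of Spp1 and held 6.93% and 7.38% of host Spp1 UMIs. Spp1 was thus 5.78 times (5.72 to 5.84) and 4.99 times (4.93 to 5.04) higher in the Grem1 fibroblasts than in macrophages. For the whole fibroblast-like class the ratio to macrophages was 4.58 and 3.36, and with only cells of a doublet score of at most 0.15 it was 2.64 and 3.50, so the order of the pools turned. At that score the class held 51.0% and 70.6% of host Spp1 UMIs, against 83.3% and 78.8%. The macrophage sum rested on few cells: the median macrophage had 4 and 2 Spp1 UMIs, and the top 10% of macrophages held 75.4% and 80.4% of the macrophage Spp1. Against monocyte-like cells (151 and 165 CPM), the blood cells from which many tumour macrophages arise, the macrophage level was 34.8 and 28.3 times higher. Fibroblast markers were low in the macrophage cluster, with Col1a1 at 25.5 CPM and Pdgfra at 0.436 CPM.

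Several host classes had about as many Spp1 UMIs per cell as barcodes of human cells. Droplets with a human tumour cell cannot make mouse Spp1, yet they held 1.58 and 1.24 mouse Spp1 UMIs per barcode, and 63.2% and 58.7% of them had at least 1 such UMI. Neutrophil-like cells, the largest host class with 9549 and 9882 cells, held 1.24 and 1.36 Spp1 UMIs per cell, with a UMI in 44.0% and 43.6% of cells at a median depth of 2036 and 1963 mouse UMIs, against 223 and 250 in tumour barcodes. Monocyte-like cells held 1.30 and 1.36 and the other fibroblast cluster 1.37 and 1.67 UMIs per cell. Their shares of cells with a UMI, 53.9% and 51.1% and 57.4% and 56.5%, were like that of neutrophils below the shares in tumour barcodes. Spp1 in these 3 classes as a whole therefore cannot be told apart from free RNA. Their aged-pool means were above the 1.24 of tumour barcodes, neutrophil cluster 9 had 1.96 and 2.08 UMIs per cell, and 52 and 105 neutrophils were above 10000 CPM.

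**Figure D2:**
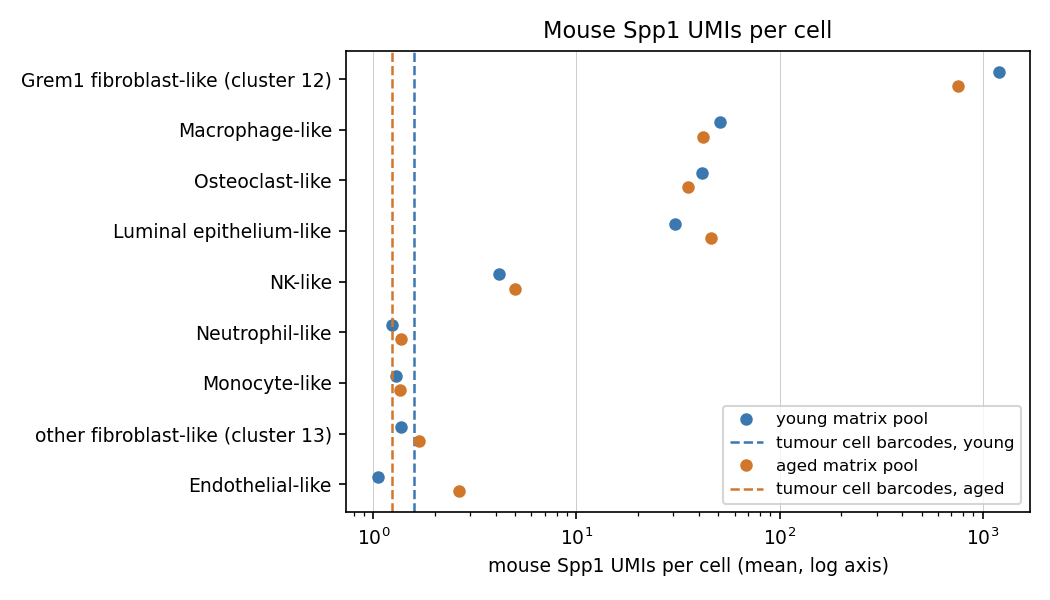
Mean number of mouse Spp1 UMIs per cell (horizontal, log axis) in 9 host groups, blue for the young and orange for the aged matrix pool, with dashed lines for the barcodes of human tumour cells at 1.58 and 1.24. Neutrophil-like, monocyte-like and the other fibroblast-like cells sit by the lines, while Grem1 fibroblast-like and macrophage-like cells sit far to the right.

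In 3 other host classes a few cells held much of the Spp1. Luminal epithelium-like cells, host mammary duct cells, had 1165 and 1991 CPM, but 1 cell held 38.3% of those UMIs in the young pool and 86.9% in the aged pool. NK-like cells had 649 and 851 CPM with a median of 1 and 0 UMIs per cell. Osteoclast-like cells (76 and 64 cells), phagocytes marked by Acp5, Ctsk, Dcstamp and Ocstamp, had 1627 and 1365 CPM. Of their young UMIs 70.6% lay in 1 cell, and the medians were 3 and 4 UMIs per cell. Calcr, of the same marker set, was at 1.39 CPM, and the cluster also carried 8 cycling markers. Osteoclasts are a classical osteopontin target in bone, and here they had less Spp1 than macrophages in both pools, 3.23-fold and 3.41-fold.

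The fibroblasts and phagocytes were clustered again with the 6 mouse genes and the osteopontin pathway list left out, which gave 11 stromal and 9 phagocyte sub-clusters. Stromal sub-cluster S0, led by Areg and Bdkrb2, held 221 and 176 cells, 36451 and 32455 CPM of Spp1, and 74.3% and 54.0% of all host Spp1 UMIs. Nearly every S0 cell had Spp1 UMIs (99.1% and 100%), and the median cell had 1639 and 1456.5 of them. Sub-cluster S3, led by Igfbp2, Mmp13 and Col7a1, had 10599 and 14758 CPM, 3.44 and 2.20 times less than S0. The cycling fibroblasts (S6, led by Ube2c, Cenpf and Top2a) had 11719 and 16696 CPM. S2, which like S1, S4, S5, S6 and S10 had markers of all 3 fibroblast types, had 2261 and 5712 CPM. Its median cell was at only 53.6 and 110 CPM. Sub-clusters S1 and S4, which carry Dpp4 and Lpl among their leading genes, had 53.5 and 69.6 CPM and 64.8 and 51.0 CPM. Pericyte-type cells (S8, Rgs5 and Higd1b) had 2511 and 4193 CPM, of which 1 cell held 76.4% and 85.6%.

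Among phagocytes, Spp1 was highest in sub-cluster P2, led by Gpnmb, Arg1, Mmp13 and Fabp5, with Tnfrsf9 and Nos2 also among its leading genes. P2 had 234 and 162 cells with 10274 and 11894 CPM, 3.11 times and 3.92 times the level in P0. P0, led by the complement gene C1qa and the resident macrophage genes Fcrls and Cx3cr1, had 3305 and 3033 CPM. The monocyte-type P1 (147 and 91.8 CPM), the interferon-response P6 (434 and 513 CPM) and P7 with the dendritic cell gene Flt3 (318 and 125 CPM) were far lower. Sub-cluster P5, which matches the osteoclast-like cells, had 492 and 1045 CPM.

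**Figure D3:**
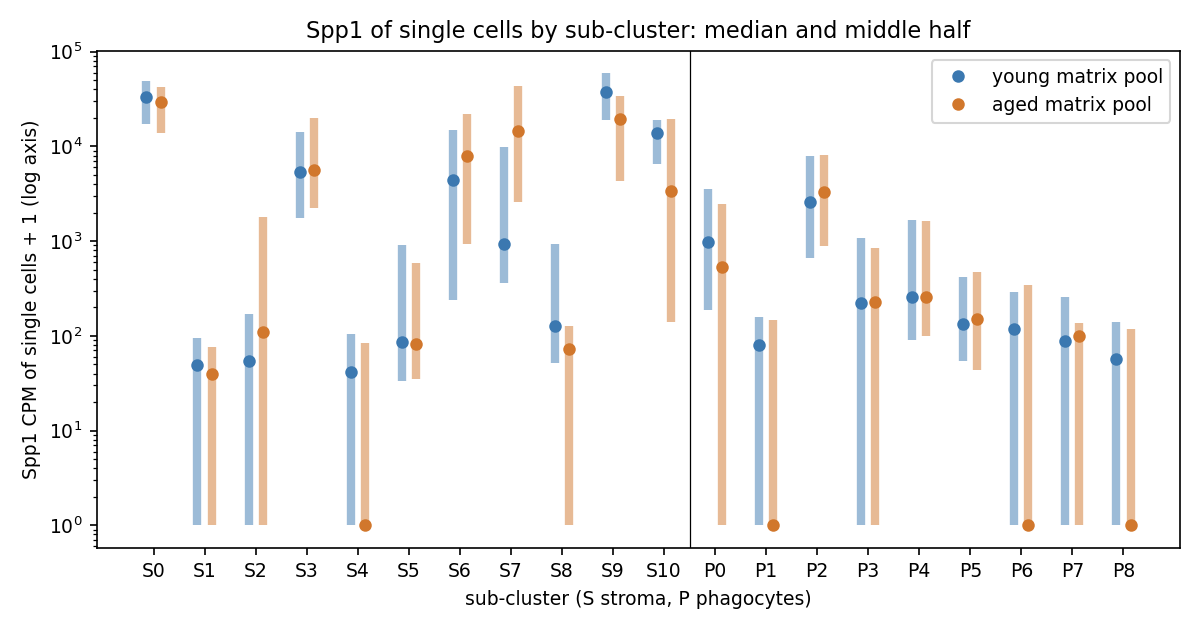
Spp1 of single cells (vertical, CPM of each cell plus 1, log axis) in 11 stromal (S) and 9 phagocyte (P) sub-clusters, with dots for the median cell and bars for the interquartile range of cells, blue for the young and orange for the aged matrix pool. S0 has medians of 33076 and 29296 CPM, S1 of 48.3 and 38.3 CPM, and P2 of 2602 and 3316 CPM, the highest of the phagocytes in both pools.

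Between the pools, Spp1 of all fibroblast-like cells was lower with the aged matrix. Of the 2 clusters pooled in this class, the Grem1 cluster showed a smaller drop. The other fibroblast cluster showed no drop, with 76.4 CPM in the young and 91.6 CPM in the aged matrix pool. As stated above, Spp1 in that cluster cannot be told apart from free RNA. The class had 24056 CPM in the young and 15677 CPM in the aged matrix pool, 1.53-fold lower (1.53 to 1.54), just past the 1.5-fold used as the limit for standing apart. Of the 6 mouse genes measured in fibroblast-like cells, Spp1 was the 1 that stood apart, against 1.1% of 5883 measured genes lower in the aged pool by that limit and 4.23% in either direction. With TMM scaling the ratio was 1.48-fold lower, and 7 of 15 alternatives left it past the limit. Within the Grem1 cluster Spp1 was 1.31-fold lower, and within S0 1.12-fold lower (1.12 to 1.13), neither apart, with backgrounds of 2.95% and 0.785% of genes in either direction. S0 made up 33.8% (218 of 645) of fibroblast-like cells in the young pool and 17.3% (176 of 1019) in the aged pool. Over the 11 stromal sub-clusters Spp1 was higher with the aged matrix in 6 and lower in 5. It was 1.39-fold higher in S3, 1.42-fold higher in S6 and 2.53-fold higher in S2 (background 3.84% of genes higher). In S7, where 25 and 47 cells were compared, it was 2.18-fold higher. It was 2.08-fold lower in S10 (11 and 30 cells), which also carried all 10 macrophage markers. In S9 (20 and 27 cells) it was 1.55-fold lower. S1 and S4, which are among the 11, came almost wholly from the other fibroblast cluster. When only cells with a doublet score of at most 0.15 were kept, 108 and 332 fibroblast-like cells remained, of which 33 and 130 were of the Grem1 cluster, and the class was 1.02-fold lower. The neutrophil genes S100a8 (872 CPM) and S100a9 (1646 CPM) were also present in the Grem1 cluster, and their part in the Spp1 values was not tested.

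In macrophage-like cells Spp1 was 1.13-fold lower with the aged matrix, and 0 of 5 measured members stood apart, where 1.05% of 5335 genes did in either direction. P2 made up 29.0% (25.8 to 32.2) of macrophage-like cells in the young and 17.6% (15.2 to 20.2) in the aged pool. Within P2 Spp1 was 1.16-fold higher with the aged matrix and within P0 1.09-fold lower, neither apart (background 2.97% and 2.1%), so the class and its Spp1-richest sub-cluster went in opposite directions. In endothelial-like cells Spp1 had 67.8 and 175 CPM, 2.58-fold higher (2.10 to 3.19), but 1 cell held 58.9% of the aged UMIs and without it the ratio was 1.09-fold. The class held 130 Spp1 UMIs in 124 cells and 321 in 121 cells, with medians of 1 and 0 per cell. Tumour barcodes held means of 1.58 and 1.24 mouse Spp1 UMIs, so endothelial Spp1 outside that 1 cell cannot be told apart from free RNA. In endothelial-like cells 2 of 5 measured members were apart and higher, Spp1 and Cd44, against 2.77% of 5232 genes higher and 4.61% in either direction.

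Hashing tags divided the cells within each pool further, with hashing antibodies that the labels call human and that no label links to single mice. Of host cells with 1 tag, 97.97% carried the same tag in the young pool and 98.2% in the aged pool. Grem1 fibroblasts with that tag had 31262 and 24589 CPM of Spp1, and those without a single tag had 26543 and 20015 CPM. Macrophage-like cells differed more by tag than by pool: with the commonest tag they had 3120 and 2705 CPM, and with any other single tag (109 and 77 cells) 10426 and 15687 CPM. The spread between tag sets was thus wider than the 1.13-fold gap between pools for macrophages.

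Among the larger host classes Cd44 was highest in neutrophil-like and monocyte-like cells, not in the cells with most Spp1. Neutrophil-like cells had 917 CPM (904 to 929) and 975 CPM (963 to 988), monocyte-like cells 548 and 609 CPM, macrophage-like cells 286 and 318 CPM, and fibroblast-like cells 250 and 223 CPM. Plasmacytoid dendritic-like cells, few in number, had 430 and 477 CPM. Osteoclast-like cells had 175 and 162 CPM, below fibroblast-like cells. The Spp1-richest stromal sub-cluster S0 had 291 and 308 CPM of Cd44, near the level of macrophage-like cells. Endothelial-like cells were lowest at 20.9 and 37.6 CPM from 40 and 69 UMIs. Tumour barcodes held 0.405 and 0.366 mouse Cd44 UMIs each, well under the 2.24 and 2.26 of a neutrophil but near the 0.323 and 0.570 of an endothelial cell. A UMI was present in 17.7% and 19.0% of endothelial cells, so their Cd44, 1.80-fold higher in the aged pool, cannot be told apart from free RNA. Among the 11 neutrophil clusters Cd44 ranged from 604 to 1256 CPM. With each cell thinned to 2000 UMIs, which left out 4619 and 5122 neutrophils, 76.4% and 77.9% of neutrophils and 40.3% and 41.3% of macrophages had a Cd44 UMI. Without thinning the shares were 79.0% and 79.3%, and 74.4% and 76.4%, and 20.1% and 17.8% of tumour barcodes had 1 or more.

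Itgav, the alpha v chain that all 3 beta chains here can pair with, was highest in osteoclast-like cells. These had 320 CPM (296 to 347) and 248 CPM (224 to 273), and 85.5% and 87.5% of them had a UMI. Fibroblast-like cells (105 and 103 CPM), macrophage-like cells (91.7 and 107 CPM) and endothelial-like cells (93.3 and 74.7 CPM) formed the next group, whose intervals overlap in part. Neutrophil-like and monocyte-like cells were low, with 30.01 to 32.9 CPM. Within the stroma the pericyte-type S8 had the most Itgav (214 and 151 CPM), and S0 had 116 and 135 CPM.

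The 3 beta chains differed in their carriers, with some carriers shared. Itgb1, the widely shared beta 1 chain, was highest in endothelial-like cells (1382 and 1307 CPM), followed by the Grem1 fibroblasts (940 and 815 CPM), NK-like cells (496 and 561 CPM) and the other fibroblasts (426 and 400 CPM). It was lowest in neutrophils at 82.0 and 79.8 CPM. Itgb3, the beta 3 chain of platelets, osteoclasts and growing vessels, was highest in endothelial-like cells (105 and 93.2 CPM). Osteoclast-like cells had 73.9 and 82.3 CPM, the Grem1 fibroblasts 76.4 and 63.3 CPM and NK-like cells 44.9 and 55.2 CPM. Macrophage-like cells had 6.08 and 2.04 CPM and neutrophils 2.31 and 1.57 CPM, from 47 and 17 and from 54 and 36 UMIs. Itgb5 went the other way from Itgb3 in macrophage-like, endothelial-like and NK-like cells. Fibroblast-like and osteoclast-like cells carried both chains, and neutrophils had little of either (3.17 and 3.19 CPM of Itgb5). Itgb5 was highest in macrophage-like cells (186 and 229 CPM). It was intermediate in fibroblast-like (104 and 125 CPM), monocyte-like (77.5 and 77.4 CPM) and osteoclast-like cells (53.8 and 72.1 CPM). Itgb5 was near 0 in endothelial-like cells (3 and 13 UMIs) and NK-like cells (5 and 2 UMIs).

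**Figure D4:**
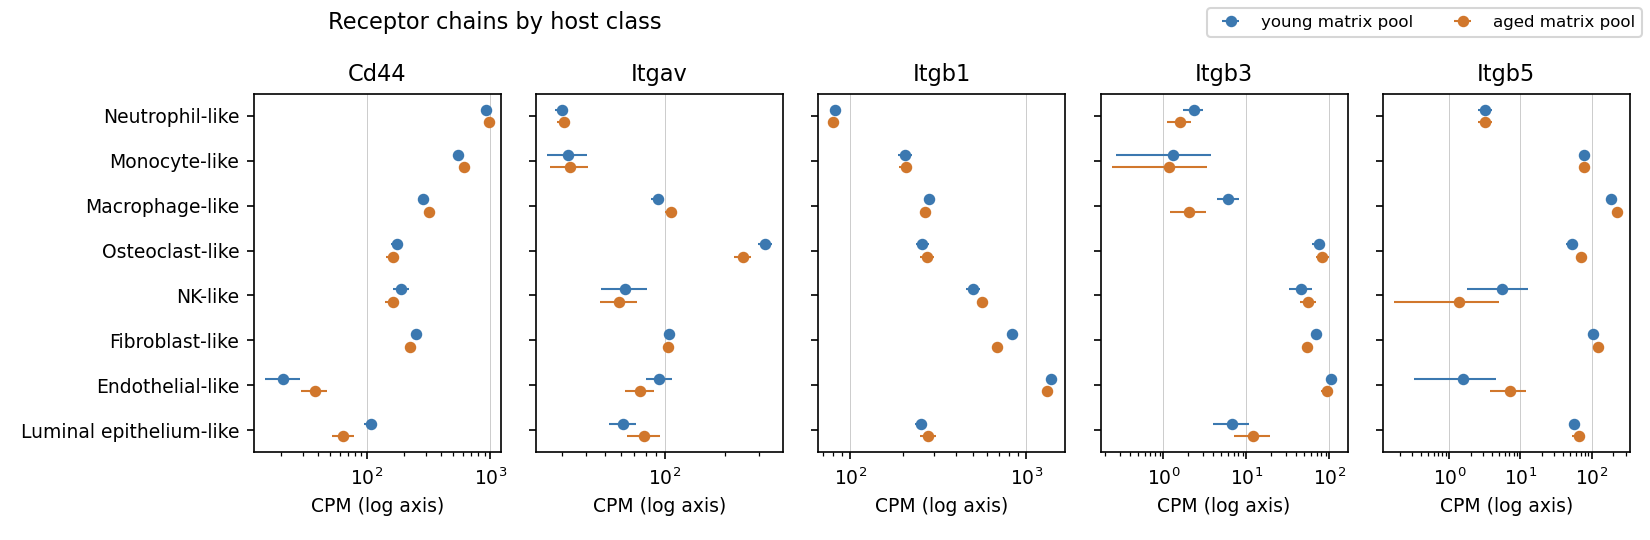
Levels (horizontal, CPM, log axis) of the 5 mouse receptor chains in 8 host classes, blue for the young and orange for the aged matrix pool, with bars for the 95% counting interval. Cd44 is highest in neutrophil-like cells (917 and 975 CPM), Itgav in osteoclast-like cells (320 and 248 CPM), Itgb1 and Itgb3 in endothelial-like cells, and Itgb5 in macrophage-like cells (186 and 229 CPM).

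The phagocyte sub-clusters sorted by receptor chain as well. Among P0, P2 and P3, P0 had the most Itgb5 (288 and 318 CPM) and the least Cd44 (160 and 214 CPM). The Spp1-rich P2 had 142 and 159 CPM of Itgb5 and 265 and 281 CPM of Cd44. Other sub-clusters with macrophage markers, among them P4, P6 and P8, were not part of this ranking. In the stroma S0 had the least Itgb5 among sub-clusters with over 100 cells (51.2 and 60.0 CPM), and S3 had 264 and 249 CPM. S7 had the highest Itgb3 of the stroma, 117 and 116 CPM, followed by S0 with 87.9 and 89.2 CPM. Across 22 host clusters, Spp1 and each receptor chain were related to differing degrees on the log2(CPM + 1) scale: the correlation was 0.53 for Itgav, 0.45 for Itgb5, 0.26 for Itgb1, 0.19 for Itgb3 and -0.015 for Cd44. These are descriptions over clusters of the same 2 libraries, which differ in depth.

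No receptor chain stood apart between pools in neutrophil-like (0 of 4 members measured, background 0.583% of 3258 genes), monocyte-like (0 of 5, background 2.23%) or NK-like cells (0 of 5, background 4.3%). Among receptor chains that reached the measured level, the widest gap in fibroblast-like cells was in Itgb3, 1.30-fold lower (1.21 to 1.40), and in macrophage-like cells in Itgb5, 1.23-fold higher (1.14 to 1.31). Itgb3 in macrophage-like cells, at 47 and 17 UMIs below that level, was 2.98-fold lower (1.68 to 5.53). Sub-cluster P2, nearly all of it macrophage-like, held 40 and 11 Itgb3 UMIs.

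Tumour cells carried all 3 human receptor genes. CD44 had 390 CPM (385 to 394) and 407 CPM (402 to 411), with a UMI in 96.4% and 96.8% of tumour cells. ITGAV, on chromosome 2 (186590056 to 186680901), had 70.4 and 66.9 CPM and was found in 70.2% and 68.3% of cells. ITGB5, on chromosome 3 (124761948 to 124901418), had 61.5 and 68.3 CPM and was found in 70.8% and 73.2%. Host barcodes held these genes in 4.25% and 4.39% (CD44), 0.938% and 1.05% (ITGAV) and 0.619% and 0.627% (ITGB5) of cells, at far lower depth, with a median of 70 and 68 human UMIs. None of the 3 stood apart: aged over young was 1.04-fold for CD44 (1.03 to 1.06), 0.951-fold for ITGAV (0.916 to 0.988) and 1.11-fold for ITGB5 (1.07 to 1.15). In tumour cells 0.221% of 5424 measured genes stood apart.

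Within a pool the differences were larger for CD44 and ITGAV. Of 3 sets of at least 100 tumour cells with different hashing tags in each pool, CD44 ranged from 333 to 520 CPM in the young and from 370 to 473 CPM in the aged pool. ITGAV ranged from 46.2 to 127 CPM (2.74-fold) and from 62.4 to 96.2 CPM (1.54-fold), and ITGB5 from 55.4 to 61.3 and from 62.2 to 69.0 CPM. For CD44 and ITGAV the tag sets of a pool thus spread more widely than the pools differed. For ITGB5 the 3 sets of the aged pool were all above those of the young pool. The nearest of them, at 61.3 CPM (57.8 to 64.9) and 62.2 CPM (57.2 to 67.6), overlap in their intervals. Tumour cells without a single tag had 62.7 and 69.8 CPM of ITGB5.

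Tumour clusters differed by receptor. Cluster 2, led by the matrix metalloproteinase genes MMP1, MMP10 and MMP9, had the highest ITGAV (178 and 176 CPM) and a high CD44 (642 and 675 CPM), and ITGB1, the partner chain, reached 1354 and 1322 CPM there against 445 and 405 CPM over all tumour cells. CD44 was highest in cluster 9, led by SERPINE2, with 656 and 741 CPM. Intervals for CD44 in clusters 9 and 2 overlap in the young pool and not in the aged pool. ITGAV came second in cluster 4, led by CXCL14 and CCL21, with 119 and 142 CPM. ITGB5 was highest in cluster 3, led by AGR2 and KLK6, at 114 and 122 CPM. Cluster 7, led by histone genes of S phase, had the least CD44 (223 and 229 CPM) and the least ITGAV (32.9 and 32.2 CPM). ITGB3 was low over all tumour cells at 8.31 and 6.73 CPM.

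**Figure D5:**
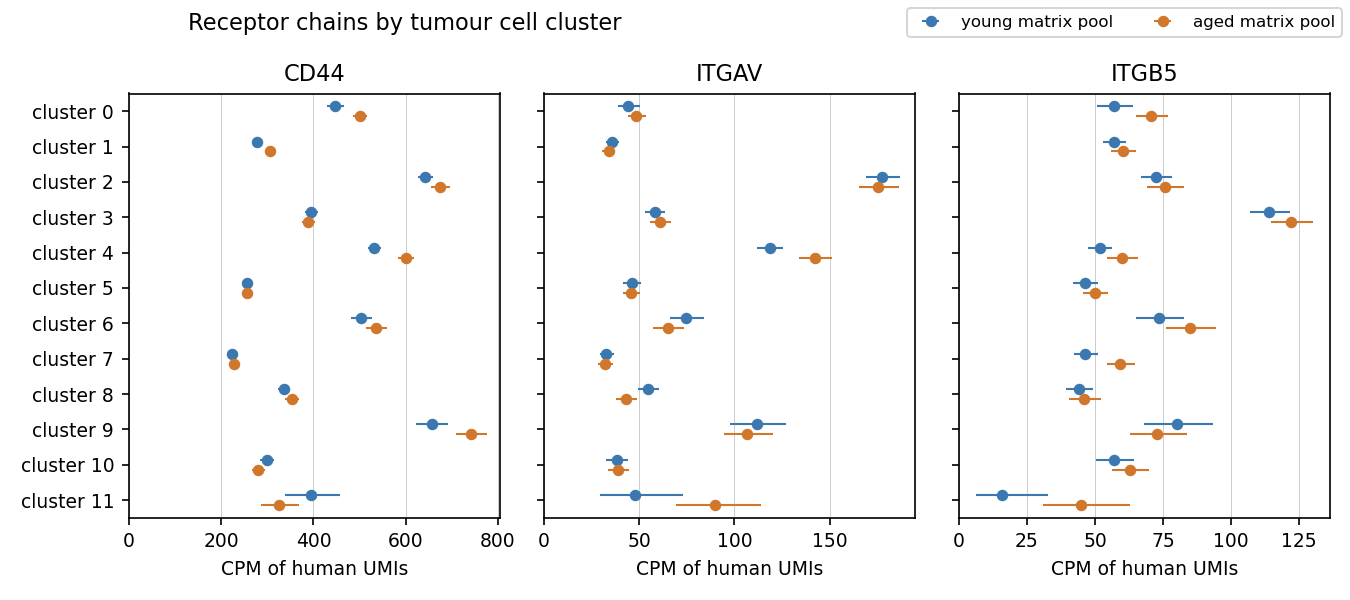
Levels (horizontal, CPM of human UMIs, linear axis from 0) of CD44, ITGAV and ITGB5 in 12 tumour cell clusters, blue for the young and orange for the aged matrix pool, with bars for the 95% counting interval. In cluster 2 ITGAV reaches 178 and 176 CPM and in cluster 3 ITGB5 reaches 114 and 122 CPM, and in both cases the pools lie closer together than the clusters.

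Other genes of the osteopontin pathway came from a list of 33 mouse genes (osteopontin-cutting proteases, kinase, other ligands, other integrin chains and adaptors), of which 32 were in the matrix and 20 reached 20 CPM in their highest class. The protease gene Mmp9 was highest in osteoclast-like cells (5388 and 4355 CPM), Mmp12 in macrophage-like cells (2031 and 1213 CPM) and Mmp3 in fibroblast-like cells (1470 and 1440 CPM). The integrin ligand genes Fn1 (3308 and 3510 CPM), Tnc (1658 and 1183 CPM), Fbn1 (791 and 999 CPM) and Ccn1 (579 and 665 CPM) were highest in fibroblast-like cells, and the integrin adaptor Tln1 in monocyte-like cells (607 and 644 CPM). Of 14 list genes measured in fibroblast-like cells none stood apart between pools, where 4.23% of 5883 genes did in either direction. In macrophage-like cells 2 of 12 did, Mmp9 and Mmp12, both lower, against 0.675% of genes lower there. Mmp12 was 1.67-fold lower, and Mmp9 fell from 49.5 to 10.4 CPM. Mmp9 rested on 383 and 87 UMIs in 801 and 921 macrophage-like cells, and 6.50% of these cells over both pools had a UMI. Whether free RNA from other classes adds to macrophage Mmp9 was not tested.

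Of the 36 human list genes 35 were in the matrix and 12 reached 20 CPM in tumour cells. FN1 had 835 and 845 CPM, MFGE8 464 and 515 CPM, MMP7, a protease that cuts osteopontin, 252 and 213 CPM, and MMP9 109 and 94.6 CPM. The beta chains ITGB8 (155 and 164 CPM) and ITGB6 (123 and 129 CPM), which also pair with alpha v, and the ligand gene CCN1 (108 and 113 CPM) complete the 8 highest with ITGB1. None of the 12 measured stood apart between pools, where 0.221% of 5424 genes did in either direction.

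The 8 mouse genes whose pattern over the 22 host clusters was most like that of Spp1, by Pearson correlation of log2(CPM + 1) among 10175 genes, were Mmp10 (0.84), Cox4i2 (0.82), Mmp13 (0.80), Slc16a11 (0.78), Dynap (0.77), Gm2115 (0.75), Cck (0.75) and Kcnk10 (0.75). Mmp13, a collagenase, was the 1 of these with a like level in the Grem1 fibroblasts (105 CPM) and the macrophage cluster (106 CPM). The stromelysin gene Mmp10 had 183 CPM in the Grem1 fibroblasts and 5.67 CPM in macrophages. The other 6 had less than 10 CPM in macrophages.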

How the data were processed

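Per the labels' protocols, single cells were depleted of dead cells, labelled with hashing antibodies and run with the 10x 3′ kit. Per the submitters' processing notes, Cell Ranger 6.0.0 was used with GRCh38 and mm10, and the deposited matrices hold whole-number UMI counts per feature and barcode. The gene annotation release was not given in the sources used here.

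Barcodes with at least 90% human UMIs were called human and with at most 10% mouse. Cells had at least 500 UMIs, 300 genes and at most 20% mitochondrial UMIs. Scrublet marked 0 to 2 cells by its own threshold, so a doublet score of 0.25 was set after the scores were seen. Clustering used scanpy 1.11.5 and leidenalg 0.10.2 (2000 variable genes, 30 components, resolution 1, sub-clusters 0.5). Classes were named from marker sets, needing 3 markers, by a rule set after the data were seen.

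UMIs were summed per class and pool as CPM, with exact Poisson, binomial and conditional binomial 95% intervals. A gene was measured with 20 CPM in the higher pool and 100 UMIs over both, and stood apart at 1.5-fold. Pools were compared for host classes of at least 100 cells in each. A hashing tag was assigned at 10 counts and 3 times the next tag, and shares were compared after thinning to 2000 UMIs. The code was tested on simulated data. The members, lists and markers were chosen with earlier results of these data known. Named genes are the members, up to 8 pathway genes per species by level, SPP1 and the 8 genes most like Spp1. Genes that lead clusters, the Grem1 fibroblast markers, S100a8, S100a9, Col1a1, Pdgfra and C1qa were named after their values were seen. RefSeq promoters and coordinates are of GRCh38.p14. No mouse sequence was used here.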

Additional observations from a re-analysis of the deposited data

Results flagged for a closer look

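Spp1 differed between the pools in opposite directions in 2 host classes. In fibroblast-like cells its log2 ratio of aged over young matrix was -0.62, and in endothelial-like cells it was 1.37, with 1 library per pool, and the difference between the classes was not tested. In the endothelial-like cells 1 cell held 58.9% of the aged UMIs, and the other Spp1 UMIs of that class cannot be told apart from free RNA.

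Surface antibodies were deposited beside the hashing tags, and the antibody to CD44 gave counts that no comparison above uses. It had 20 counts in the young and 325 counts in the aged matrix pool, of which 303 lay in 1 barcode. All surface antibodies together had 560 and 1074 counts, against 14157011 and 11914756 for the hashing tags. The reason for these low totals was not tested, and nothing is read from them about the protein.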

How the results depend on the processing

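Spp1 in fibroblast-like cells (log2 aged over young -0.62 as reported) was -0.63 at 98% species purity, -0.62 with no doublet removal, -0.57 under scaling by TMM or by median of ratios, -0.60 without the top cell, -0.58 in cells with 1 hashing tag, -0.54 at clustering resolution 0.5, also with clusters matched to the reported classes, -0.39 in the Grem1 cluster alone and -0.026 at a doublet score of 0.15. It turned to 0.55 when clusters were built without the members and the pathway list, where the naming rule left the Spp1-rich cluster unnamed; there the fibroblast-like class had 0.186 and 0.279 times the macrophage Spp1 level. With clusters matched to the reported classes the ratio was -0.62. Spp1 in macrophage-like cells (-0.17) was -0.23 at 98% purity, -0.43 at a doublet score of 0.15, -0.36 with every cell weighted equally, -0.20 under both scalings, -0.28 without the top cell and -0.039 with clusters built without the members, and resolution 0.5 gave no macrophage value because that cluster was unnamed. In tumour cells CD44 (0.06) was 0.10 with equal weights and 0.17 in cells with 1 tag, and ITGAV (-0.07) was -0.014 and 0.10. The 3 ratios apart between pools (Spp1 in fibroblast-like, Spp1 and Cd44 in endothelial-like cells) became 0 at a doublet score of 0.15 and 6 with no minimum level. Of 33 ratios, 28 were other than the tumour genes and Spp1 in fibroblast-like and macrophage-like cells. Among these 28, 4 stood apart under some alternative. They were Spp1 and Cd44 in endothelial-like cells, already apart as reported, Itgav in endothelial-like cells and Spp1 in NK-like cells. The NK-like Spp1 ratio ran from 0.608-fold to 1.76-fold. Of the 8 genes most like Spp1, 5 recurred in either pool alone and 2 by Spearman correlation. The cause of these shifts was not tested. Matched-cluster versions and the Grem1 cluster alone were added after the data were seen. No paired analysis was possible because each group was 1 library. Classes of few cells limit precision, as with 3 and 13 Itgb5 UMIs in endothelial-like cells.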
